A study of Rattus norvegicus with 4 samples.

Results

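Genes for voltage-gated ion channels, related potassium and chloride channels and ryanodine receptors were followed in rat skeletal muscle. The rats modelled intermittent claudication, in which reduced blood flow to the hindlimb shortens walking distance. The genes were taken by symbol from the platform annotation (symbols beginning with Kcn, Scn, Cacn, Clcn or Ryr and a family letter or number). They were also selected on their measured signal, which had to be 60 or more on at least 1 of the 4 arrays, and a gene with several such probe sets was represented by the one with the highest mean. The symbols took in 194 probe sets of 121 genes, of which 36 probe sets reached the signal minimum. They left 31 genes out of the 8502 genes on the arrays that passed the same minimum. By family these were 15 of 75 Kcn genes, 5 of 12 Scn genes, 5 of 24 Cacn genes, 4 of 7 Clcn genes and 2 of 3 Ryr genes. The family name is wider than voltage gating, since inward rectifiers, calcium-activated channels, intracellular chloride transporters and the ryanodine receptors also carry these symbols.

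Each of 4 arrays held biotin-labelled cRNA from skeletal muscle of a rat of the F344/DuCrlCrlj strain or from a pool, since the sources used here do not say how many animals stand behind an array. The groups were ischemia with electrical stimulation (ischemia + ES), ischemia with exercise (ischemia + exercise), ischemia without either, and sham, with 1 array each. The muscle, sex and age of the rats, the way ischemia was made and the schedules of both treatments were not stated. ES was developed to contract the muscle through its nerve, and the study asked which expression changes ES and exercise bring about relative to ischemia alone. With 1 array per group there is no replicate, no error and no test, and a difference is a difference between 2 arrays. How precise any value is depends on the number of arrays, which is small. The threshold for a difference was a ratio of 2-fold, taken after signals under the median of all values (30.1, the floor) were set to that floor. A ratio that involves an array at the floor is a bound and is written as "at least".

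Contraction starts when an action potential, carried by sodium channels, spreads into the transverse tubules. There the voltage sensor Cav1.1 opens the ryanodine receptor of the sarcoplasmic reticulum by direct coupling, and calcium is released onto the filaments. The resting membrane is held by the chloride channel ClC-1 and by inward-rectifier potassium channels, and delayed-rectifier potassium channels repolarise it. In denervated muscle the membrane becomes hyperexcitable: ClC-1 is known to fall, the small-conductance channel SK3 (Kcnn3) to return, and acetylcholine receptors to spread beyond the endplate.

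Median signals of the arrays ran from 29.0 to 31.8. The ratio of the 3' to the 5' actin probe set, a measure of RNA integrity that is higher in degraded RNA, was 5.94 with ES, 4.34 with exercise, 3.81 with ischemia and 4.38 in sham. Its part in the results on the ES array was not tested. All 10 slow-fibre markers and 9 of 11 fast-fibre markers reached the signal minimum, and 0 of the 4 cardiac markers did (Myh6, Nppa, Nppb and Tnni3). In a piece of muscle, fewer cells of a type and less RNA per cell cannot be told apart.

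Of the 31 channel genes, 28 lay above the floor on all 4 arrays and 19 had a signal of 60 or more on all of them. There were 6 that reached 60 on 1 array only (Clcn1, Clcn6, Kcne3, Kcnn1, Kcns3 and Scn3b). Their ratios are therefore partly fixed by the way they were chosen. Ryr3 and Scn1a reached 60 on the exercise and sham arrays only, and the same limit holds for their ratios. Just inside the minimum were Kcnn1, with a highest signal of 60.1, and Clcn1, with 61.4. Just outside were Cacna2d3 with 56.5 and Cacng2 with 55.3. Of the genes listed by role, 18 were among the 31, and another 7 stayed under the minimum (Scn4a, Clcn2, Clcn7, Kcnj2, Kcnn4, Kcnmb1 and Kcnk13). Scn4a, the main sodium channel of adult muscle, read 31.8 with ES, 32.0 with exercise, 40.3 with ischemia and 39.3 in sham. These signals are close to the floor, so its level on these arrays cannot be ordered.

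**Figure D1:**
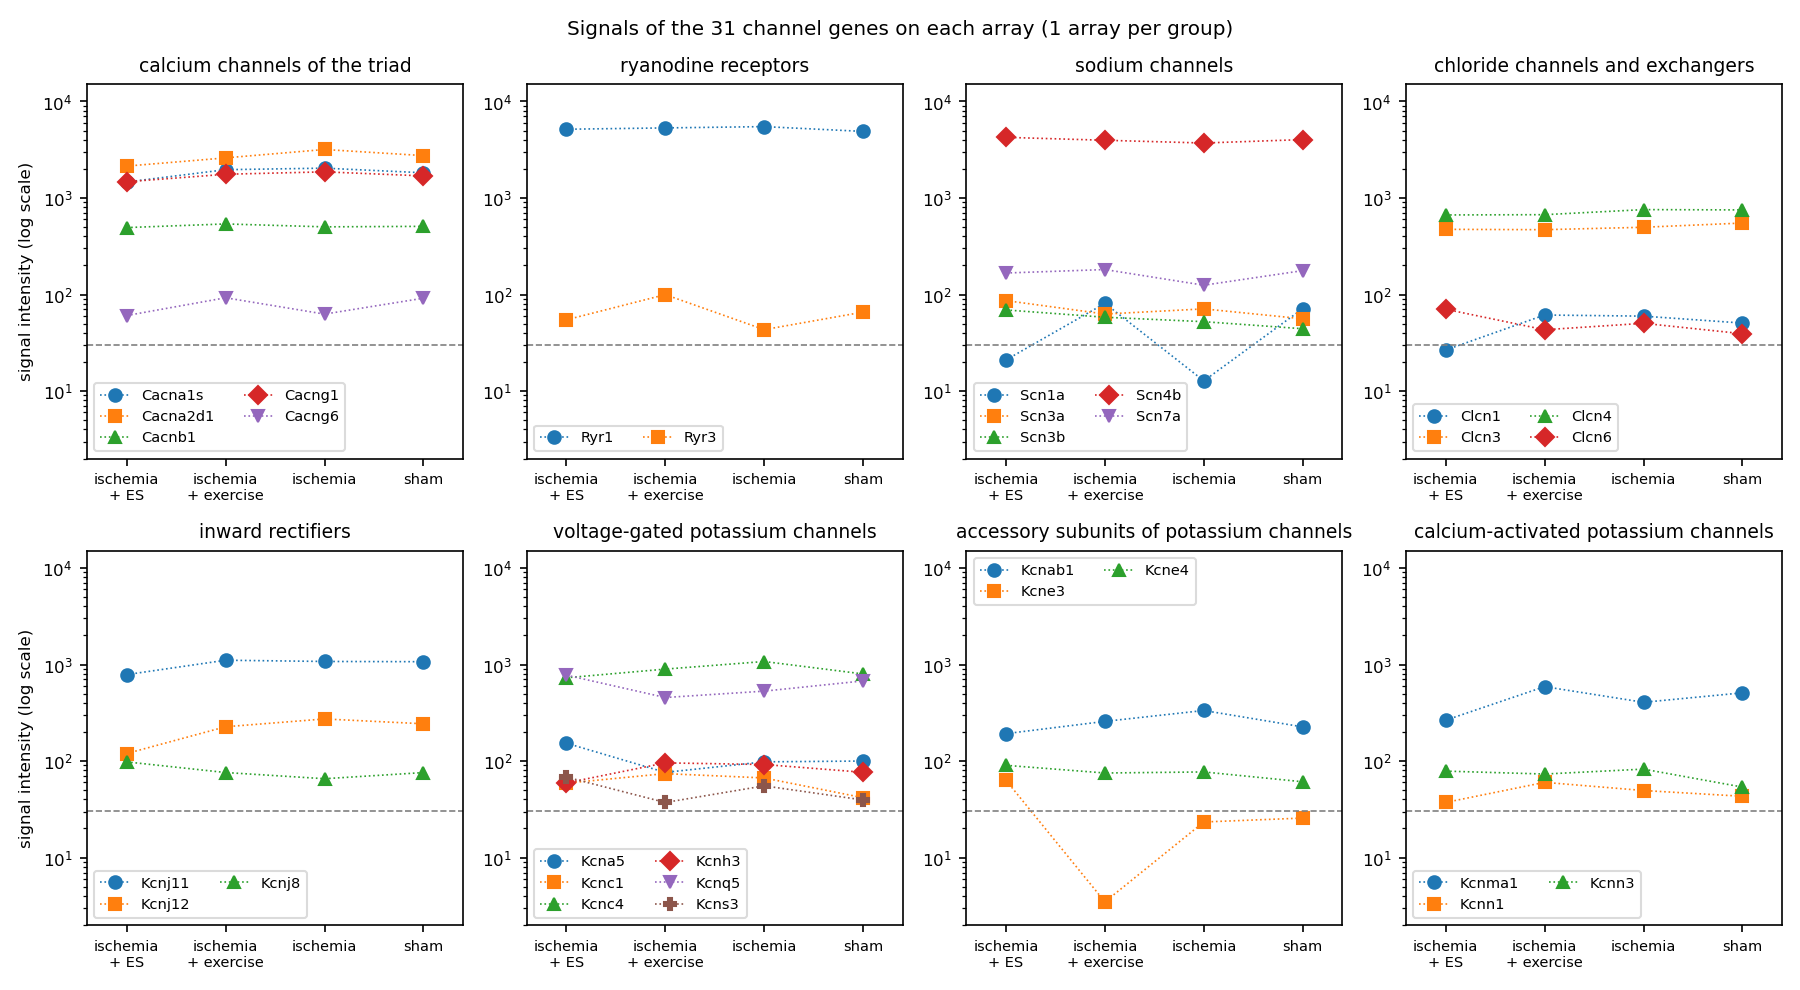
Signal intensity on a log axis (y) of the 31 channel genes on the ischemia + ES, ischemia + exercise, ischemia and sham arrays (x), in 8 panels by role. Each point is 1 array, dotted lines join the points of a gene only to guide the eye, and the dashed line is the floor at 30.1. Scn1a, Kcne3 and Clcn1 cross the floor, while the other 28 genes lie above it on all 4 arrays.

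At most 3 of 31 channel genes passed 2-fold in 1 direction of a comparison. With ischemia against sham, 0 of 31 were higher and 1 lower (3.23%), against a background of 0.941% and 1.02% among all 8502 genes. With ES against ischemia, 1 was higher (3.23%) and 1 lower (3.23%), against a background of 2.72% and 0.941%. With exercise against ischemia, 2 were higher (6.45%) and 0 lower, against a background of 1.35% and 1.04%. The 2 higher were Ryr3 and Scn1a, whose ratios are partly fixed by the way they were chosen. Between ES and exercise, 2 were higher (6.45%) and 3 lower (9.68%) on the ES array, against a background of 3.52% and 1.31%. Since ES and exercise were both set against the same ischemia array, those 2 comparisons are not independent. At 1.5-fold the counts for ES against ischemia were 2 higher and 5 lower (Clcn1, Kcnab1, Kcnh3, Kcnj12 and Kcnma1), where 10.3% and 5.14% of all genes passed. Between ES and exercise they were 5 higher and 8 lower, where 11.1% and 4.88% passed. With ischemia against sham they were 2 and 2, where 5.15% and 3.36% passed, and with exercise against ischemia 2 and 0, where 4.06% and 4.46% passed. In all, 7 genes passed 2-fold at least once: Clcn1, Kcna5, Kcne3, Kcnj12, Kcnma1, Ryr3 and Scn1a. Of the 16 channel genes with a mean signal under 120, 5 did so (31.2%), where 13.8% of all genes this dim did. Of the 15 brighter ones 2 did (13.3%, Kcnj12 and Kcnma1), where 5.52% of all genes this bright did. Without replicates the noise of dim signals was not measured, and a count of this size rests on single genes.

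**Figure D2:**
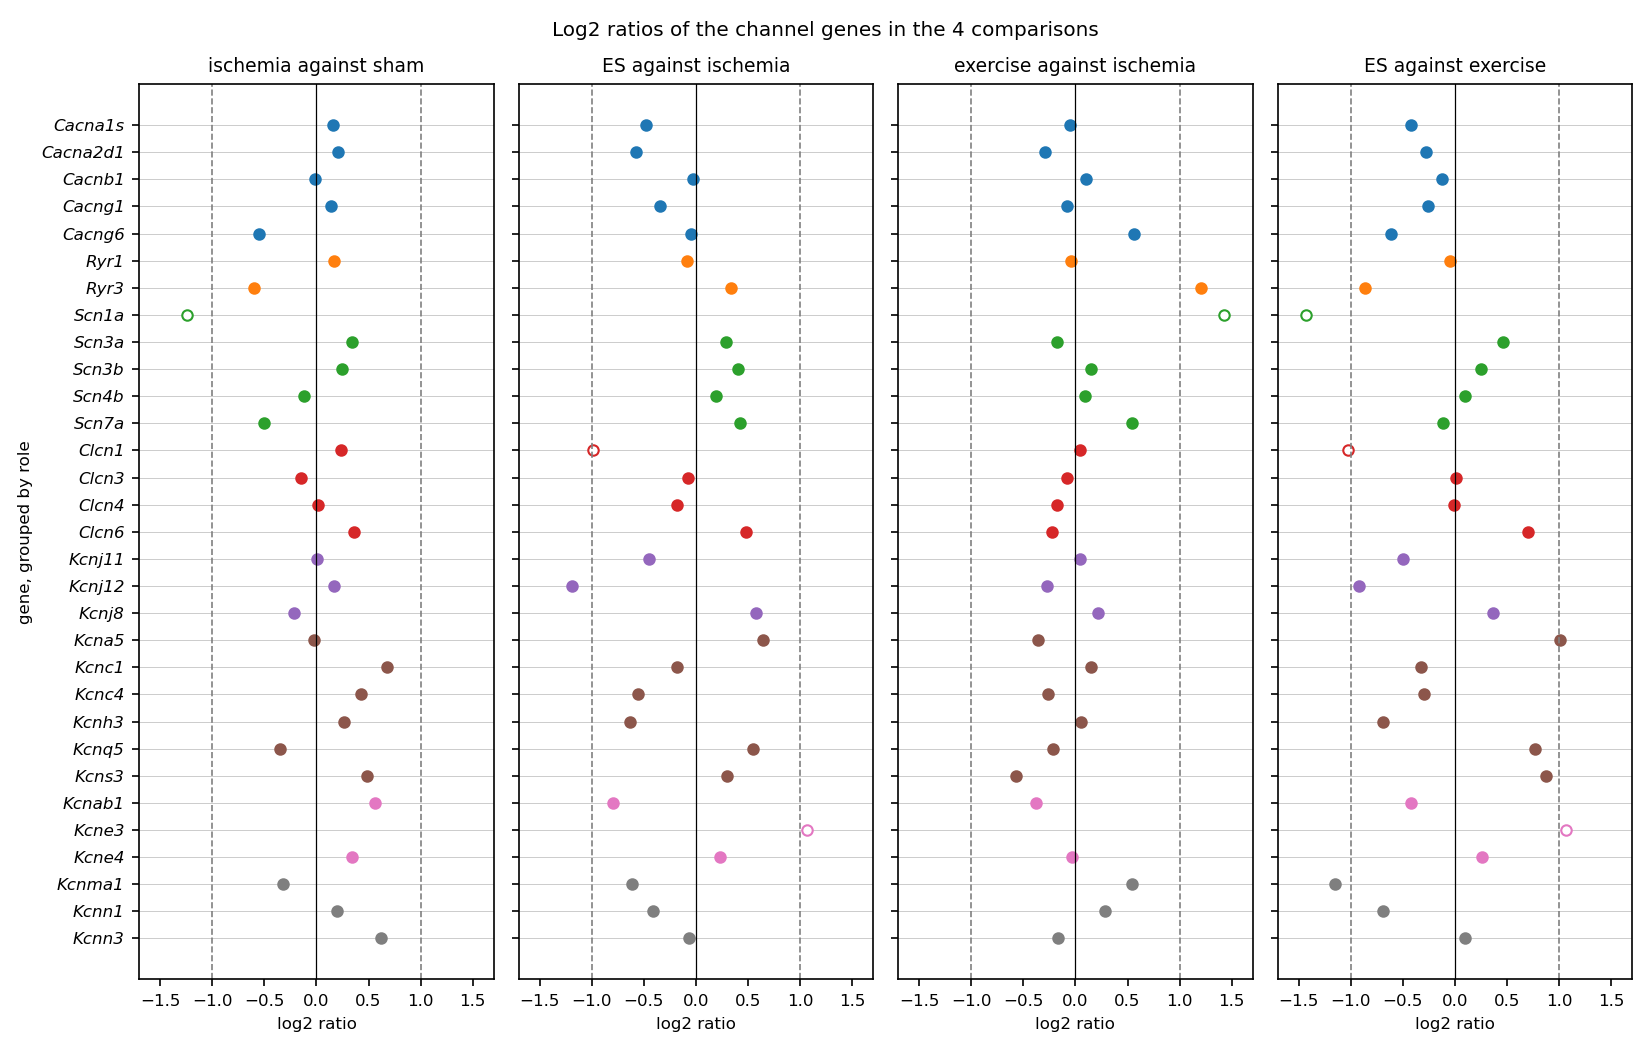
Log2 ratio (x) of each channel gene (y, coloured by role) in the 4 comparisons, 1 panel each, the first-named group over the other. Filled points have both arrays above the floor, open points are bounds, genes with both arrays at the floor have no point, and dashed lines mark 2-fold. In the panels of ES, Kcnj12, Clcn1 and Kcnma1 lie to the left and Kcna5 and Kcne3 to the right. With ES against exercise Scn1a lies furthest to the left, as a bound at -1.43.

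For 5 of the 7 genes past 2-fold the RefSeq promoter table (build GRCr8) held an entry, as it did for 23 of the 31 channel genes. The 250 bases upstream of the annotated start are shown for these 5, because these genes carry the differences counted above. They are written 5′ to 3′ with every match to the E-box letters CANNTG, the core bound by myogenic factors, and to the MEF2 motif, bound by another muscle transcription factor family, in capitals.
Clcn1 (chr4:72138928-72139177, plus strand): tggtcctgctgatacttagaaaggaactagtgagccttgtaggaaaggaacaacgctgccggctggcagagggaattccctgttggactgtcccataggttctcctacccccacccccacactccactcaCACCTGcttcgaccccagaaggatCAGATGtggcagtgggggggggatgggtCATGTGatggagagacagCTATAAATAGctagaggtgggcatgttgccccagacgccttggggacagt
Kcna5 (chr4:161043810-161044059, minus strand): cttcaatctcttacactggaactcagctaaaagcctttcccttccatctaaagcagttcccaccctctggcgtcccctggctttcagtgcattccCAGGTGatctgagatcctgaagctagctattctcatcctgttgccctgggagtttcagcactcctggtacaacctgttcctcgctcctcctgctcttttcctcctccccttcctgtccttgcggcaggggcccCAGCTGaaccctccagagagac
Kcne3 (chr1:163935785-163936034, plus strand): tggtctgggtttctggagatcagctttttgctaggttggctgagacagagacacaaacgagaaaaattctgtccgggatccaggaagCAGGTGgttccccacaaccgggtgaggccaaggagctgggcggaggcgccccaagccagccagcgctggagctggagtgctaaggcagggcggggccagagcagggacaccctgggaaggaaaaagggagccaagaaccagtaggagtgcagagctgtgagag
Kcnma1 (chr15:351675-351924, plus strand): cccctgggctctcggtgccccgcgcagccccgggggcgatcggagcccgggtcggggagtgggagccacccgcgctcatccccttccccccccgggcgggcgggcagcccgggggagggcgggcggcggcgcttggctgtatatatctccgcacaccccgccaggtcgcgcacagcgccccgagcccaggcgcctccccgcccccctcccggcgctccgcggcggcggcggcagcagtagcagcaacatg
Ryr3 (chr3:120433466-120433715, minus strand): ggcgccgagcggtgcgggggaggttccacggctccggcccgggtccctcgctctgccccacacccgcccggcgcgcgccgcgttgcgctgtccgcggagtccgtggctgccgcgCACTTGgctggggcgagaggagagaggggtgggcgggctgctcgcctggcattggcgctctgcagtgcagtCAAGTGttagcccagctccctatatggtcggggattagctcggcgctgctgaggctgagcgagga
Both strands were searched. CANNTG occurred in 15 of the 23 promoters (65.2%), against 65.2% of the 27457 promoters of this length in the table, so its presence is common. The MEF2 motif occurred in 1 of the 23, that of Clcn1, against 3.07% of all promoters. That match also contains the letters TATAAA, which 2 of the 23 and 13.1% of all promoters hold, and a match to letters is no evidence of binding. The windows differed in base composition: G and C made up 56.0% for Clcn1, 54.8% for Kcna5, 59.6% for Kcne3, 79.6% for Kcnma1 and 72.4% for Ryr3.

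The voltage sensor complex was lower on the ES array by less than 2-fold. Cacna1s, which encodes the pore and voltage sensor of Cav1.1, had a signal of 1465 with ES, 1966 with exercise, 2039 with ischemia and 1826 in sham. Its ES array was the lowest, at a log2 ratio of -0.48 against ischemia and -0.42 against exercise. Cacna2d1, the extracellular alpha2delta subunit, read 2142, 2604, 3182 and 2750.1 in the same order of arrays, with log2 ratios of -0.57 against ischemia and -0.28 against exercise. Cacng1, the gamma subunit of muscle, read 1474 with ES, 1762 with exercise, 1867 with ischemia and 1695 in sham (log2 ratio -0.34 against ischemia). On these 3 genes the ischemia array was the highest of the 4 and the ES array the lowest.

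The other subunits did not share that order. Cacnb1, the intracellular beta subunit that traffics the channel, read 494 with ES, 539 with exercise, 503 with ischemia and 509 in sham, a span too narrow to order the arrays. Its second probe set read 73.6, 50.8, 68.7 and 61.7 and put the ES array highest, so the sign for Cacnb1 depends on the probe set. Cacng6, another gamma subunit of muscle, read 60.6 with ES and 92.6 with exercise, against 62.7 with ischemia and 91.6 in sham. Its exercise and sham arrays stood together above the other pair, with a log2 ratio of 0.56 for exercise against ischemia and -0.55 for ischemia against sham. All 5 calcium channel genes had a ratio below 0 with ES against ischemia and with ES against exercise, where 43.4% and 45.3% of all 8502 genes did, and the ratio of Cacnb1 was close to 0. For Cacnb1 the sign with ES against ischemia turned under cyclic loess normalization and with the mean of its probe sets, and that against exercise turned with the mean.

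Genes that build the triad, the junction between tubule and reticulum, had smaller differences as a list. Of 16 measured genes on it, 11 had a ratio below 0 with ES against ischemia, with a median of -0.10, against -0.34 for the 5 calcium channel genes and 0.06 for all genes. The lowest were Jsrp1, a triad protein that binds Cav1.1, at -0.54, and the junctophilin genes Jph1 and Jph2, which tether the membranes, at -0.52 and -0.46. Others lay near or above 0, among them Hrc, a calcium-binding protein of the reticulum, at -0.02, the fast-fibre calsequestrin Casq1 at 0.14 and the caveolin gene Cav3 at 0.36. The list had 1 gene past 2-fold, Casq2, the slow-fibre calsequestrin, at 2.12 in log2 ratio with ES against ischemia. With ES against exercise 11 of the 16 genes were also below 0. The median of the list was then -0.20, against -0.28 for the 5 calcium channel genes and 0.04 for all genes.

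The ryanodine receptor genes differed from each other. Ryr1, the release channel of skeletal muscle, had a signal of 5159 with ES, 5325 with exercise, 5492 with ischemia and 4898 in sham. All its log2 ratios lay between -0.09 and 0.17. Ryr3, a second isoform found in developing and in some adult muscles, read 54.7 with ES, 99.8 with exercise, 43.3 with ischemia and 65.8 in sham. It was 2.31-fold higher with exercise than with ischemia (log2 ratio 1.20), and the exercise and sham arrays were both above the other 2. Ryr3 reached 60 on the exercise and sham arrays only, so its order and ratio are partly fixed by the way it was chosen. The signals of Ryr3 are dim, and with a floor at the 70th percentile they all fell below it.

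Sodium channel genes showed their widest difference in a neuronal isoform at the edge of detection. Scn1a, which encodes Nav1.1, read 21.0 with ES and 81.1 with exercise, against 12.8 with ischemia and 71.5 in sham. The ES and ischemia arrays were under the floor and the exercise and sham arrays above it. This gives at least 2.69-fold higher signal with exercise than with ischemia, at least 2.37-fold lower with ischemia than in sham, and at least 2.69-fold lower with ES than with exercise. Scn1a reached 60 on the exercise and sham arrays only, so these differences are partly fixed by the way it was chosen. It had 1 probe set, so no second reading exists on these arrays. Of the Schwann cell and nerve list, 4 of 10 genes reached the minimum (Mbp, Pmp22, Prx and S100b), and all 4 lay above the floor on every array. Gap43, a protein of growing axons, stayed under the minimum but above the floor, at 37.5 with ES, 58.7 with exercise, 49.8 with ischemia and 47.3 in sham. The genes of this list differed in their highest array. It was exercise for Gap43 and S100b, ES for Mbp and Pmp22, and sham for Prx. Sox10 and the neurofilament genes Nefl and Nefm were under the floor on all 4 arrays. The part of nerve content in the Scn1a values was not tested.

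The remaining sodium channel genes differed by less. Scn4b, a beta subunit that modulates the pore, read 4253 with ES, 3966 with exercise, 3714 with ischemia and 4030.0 in sham, with log2 ratios between -0.12 and 0.20. Scn7a, the sodium sensor Nax of Schwann cells and other tissues, read 167 with ES and 181 with exercise, against 125 with ischemia and 177 in sham. Its ischemia array was the lowest, at a log2 ratio of -0.50 against sham. The summed signal of the Schwann cell and nerve list, 1435 with ES, 1233 with exercise, 1057 with ischemia and 1393 in sham, was also lowest with ischemia. The other arrays came in a different order, with the list highest with ES and Scn7a highest with exercise. Most of that sum is Pmp22, and S100b was lower with ES than with ischemia (log2 ratio -0.31). The part of Schwann cell content in the Scn7a values was not tested. Scn3a, a sodium channel of embryonic neurons, read 86.5 with ES, 62.8 with exercise, 71.0 with ischemia and 56.1 in sham. Scn3b, another beta subunit, read 69.2, 58.2, 52.3 and 44.2 in that order, and its second probe set (38.5, 29.6, 25.2 and 24.9) was also highest with ES. Both had the highest signal on the ES array, at log2 ratios of 0.29 and 0.40 against ischemia.

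Clcn1, which encodes the muscle chloride channel ClC-1, was lowest on the ES array. It read 26.6 with ES and 61.4 with exercise, against 59.7 with ischemia and 50.6 in sham. The ES array was under the floor and the other 3 were above it, close to each other. This is at least 2.04-fold lower with ES than with exercise and at least 1.98-fold lower than with ischemia. With a floor at the 30th percentile the ratio to ischemia is measured on both arrays and passes 2-fold (log2 ratio -1.17). The gene sat just inside the signal minimum and had 1 probe set. It reached the minimum on the exercise array alone, so its ratio to exercise is partly fixed by the way it was chosen.

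The other chloride genes of the set encode exchangers of endosomes and lysosomes. Clcn3 read 474 with ES, 470 with exercise, 498 with ischemia and 550.4 in sham. Its probe sets at lower signals read 121, 135, 167 and 199, and 120.005, 145, 154 and 199, and sham was the highest on all 3 of these. A probe set near the floor read 29.6 with ES, 34.6 with exercise, 42.2 with ischemia and 26.0 in sham, where sham was the lowest. Clcn3 was also the only one of the 31 genes to be highest in sham, where 17.9% of all genes were. Clcn4 read 668, 672, 758 and 753, with the 2 treated arrays below the 2 untreated ones by a log2 ratio of -0.18 for ES and -0.17 for exercise against ischemia. Clcn6 read 70.4 with ES, 43.2 with exercise, 50.3 with ischemia and 39.3 in sham, at a log2 ratio of 0.71 between ES and exercise.

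Kcnj12 and Kcnj11, inward-rectifier genes of the muscle fibre, were lowest on the ES array. Kcnj12, which encodes Kir2.2, read 119.6 with ES and 227 with exercise, against 273 with ischemia and 243 in sham. It was 2.28-fold lower with ES than with ischemia (log2 ratio -1.19) and 1.89-fold lower than with exercise, and the other 3 arrays lay close together. It was the only channel gene counted as lower with ES against ischemia.

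Kcnj11 encodes Kir6.2, the pore of the ATP-sensitive potassium channel that couples fibre metabolism to excitability. It was measured by 3 probe sets above the minimum, and all 3 were lowest with ES. The brightest read 786 with ES, 1108 with exercise, 1076 with ischemia and 1069 in sham. The next read 352, 652, 592 and 633, and the dimmest 51.4, 87.0, 93.6 and 121 in that order. Their log2 ratios for ES against ischemia were -0.45, -0.75 and -0.86, so none passed 2-fold while the direction was shared. Abcc9, the sulphonylurea receptor partner SUR2, read 1839 with ES, 2031 with exercise, 1864 with ischemia and 1802 in sham, within a log2 ratio of 0.14 in the comparisons. Abcc8, the other sulphonylurea receptor gene, was lower with ES, at a log2 ratio of -0.92 against ischemia and -0.64 against exercise. Its ratios were 0.80 for ischemia against sham and -0.28 for exercise against ischemia. Kcnj8, which encodes Kir6.1, the ATP-sensitive pore of vascular muscle, differed in the other direction and read 97.9 with ES, 76.0 with exercise, 65.6 with ischemia and 75.9 in sham. Its log2 ratio was 0.58 for ES against ischemia.

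**Figure D3:**
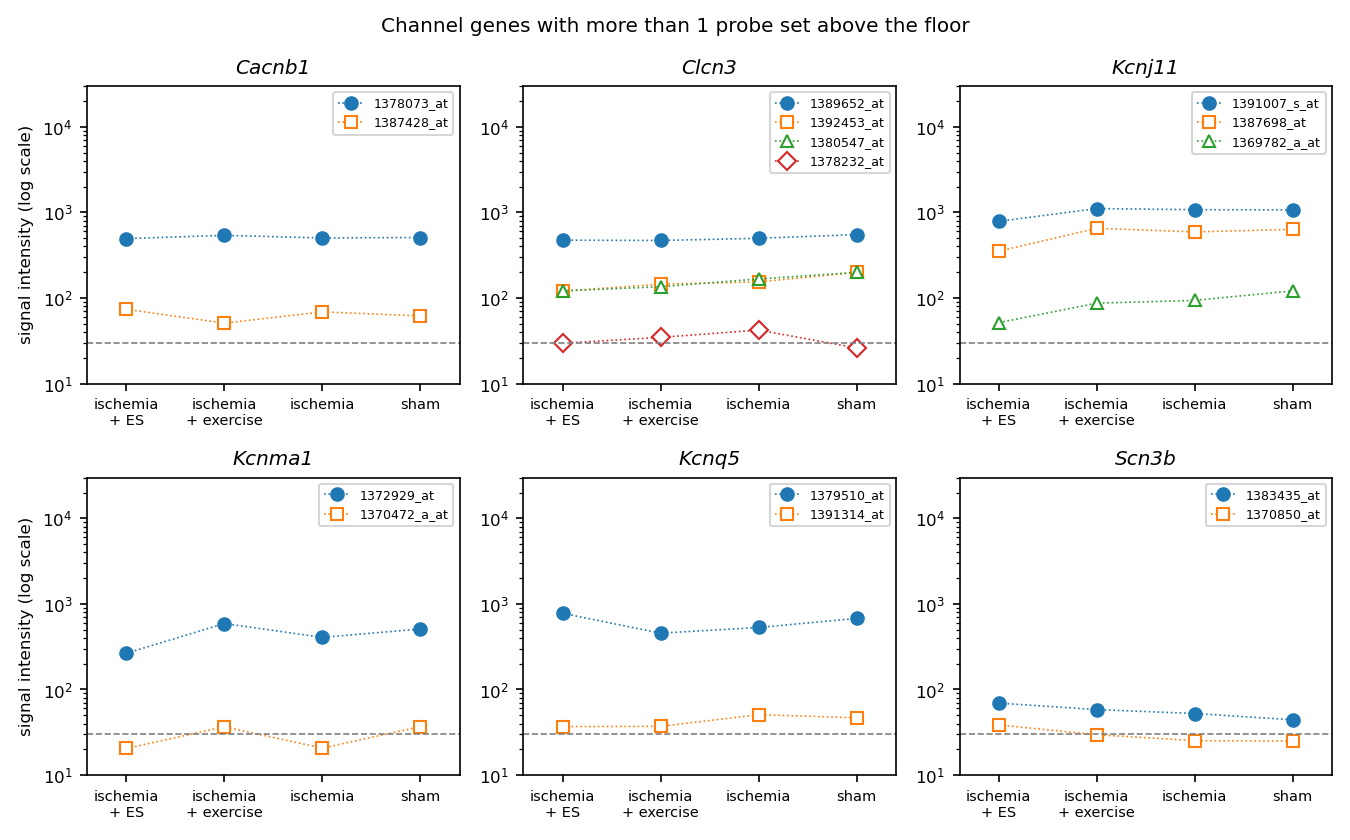
Signal intensity on a log axis (y) by array (x) for the 6 channel genes with more than 1 probe set above the floor on at least 1 array. Filled points are the probe set used, open points the others, and the dashed line is the floor at 30.1. The 3 probe sets of Kcnj11 are all lowest with ES, while those of Kcnq5 and Cacnb1 differ in order.

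Among voltage-gated potassium channels the direction with ES was mixed, 3 of 6 genes above and 3 below 0 against ischemia. Kcna5, which encodes Kv1.5, a delayed rectifier of vascular muscle and other cells, read 153 with ES, 76.3 with exercise, 98.1 with ischemia and 100.01 in sham. It was 2.01-fold higher with ES than with exercise, and the ES array stood above the other 3. Under quantile and cyclic loess normalization that log2 ratio was 0.94 and 0.95, below 2-fold. Kcnq5, an M-type channel also present in muscle, read 776 with ES, 455 with exercise, 529.8 with ischemia and 676 in sham. A dimmer Kcnq5 probe set read 36.8, 37.0, 50.7 and 46.7 and was lower with ES than with ischemia, the opposite sign. Kcns3, a silent subunit that modifies Kv2 channels, read 68.2 with ES and 37.2 with exercise, against 55.3 with ischemia and 39.5 in sham. Its log2 ratio between ES and exercise was 0.87.

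Kcnc4, which encodes the Kv3.4 channel of skeletal muscle, read 729 with ES, 896 with exercise, 1075 with ischemia and 799 in sham. Ischemia was its highest array, at a log2 ratio of 0.43 against sham, and ES was -0.56 against ischemia. Kcnc1, which encodes Kv3.1, read 59.0, 74.1, 66.8 and 41.7, with sham lowest and a log2 ratio of 0.68 for ischemia against sham. Kcnh3, a channel best known from brain, read 59.3 with ES, 95.7 with exercise, 92.0 with ischemia and 76.5 in sham, at -0.63 in log2 ratio for ES against ischemia.

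Accessory subunits of potassium channels included 1 gene above the floor on the ES array alone. Kcne3, whose product MiRP2 assembles with Kv3.4 in skeletal muscle, read 63.1 with ES, 3.48 with exercise, 23.4 with ischemia and 25.7 in sham. It was at least 2.10-fold higher with ES than with either exercise or ischemia, both of which were at the floor. The gene entered the set through its ES signal alone, and its second probe set was under the floor on every array, at 12.2, 12.2, 18.1 and 3.06. Under quantile and cyclic loess normalization the bound fell to 0.99 and 0.95 on the log2 scale. Kcnab1, a cytoplasmic beta subunit that speeds inactivation, read 192 with ES, 258 with exercise, 334 with ischemia and 226 in sham. Ischemia was again highest and ES lowest, at log2 ratios of 0.57 for ischemia against sham and -0.80 for ES against ischemia. Kcne4, an inhibitory subunit, read 90.3, 75.2, 77.1 and 61.0, highest with ES.

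Calcium-activated potassium channels were led by Kcnma1, the large-conductance BK channel of muscle and vessel wall. It read 265 with ES and 589.8 with exercise, against 406 with ischemia and 509 in sham. It was 2.23-fold lower with ES than with exercise (log2 ratio -1.15), and the exercise and sham arrays stood above the other 2. A dimmer probe set of Kcnma1 read 20.4, 36.6, 20.6 and 36.8, with only the exercise and sham arrays above the floor. Kcnn3, which encodes SK3, read 78.6 with ES, 73.3 with exercise, 82.5 with ischemia and 53.7 in sham. Its 3 ischemic arrays stood above sham, at a log2 ratio of 0.62 for ischemia against sham, and ES and ischemia differed by -0.07. Kcnn1, which encodes SK1, read 37.2, 60.1, 49.5 and 43.1, lowest with ES.

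Several orders of the arrays recurred among the 31 genes. The ES array was the lowest for 14 (45.2%), where it was for 27.9% of all genes, and the highest for 10 (32.3%), where it was for 39.7%. The 14 lowest with ES were Cacna1s, Cacna2d1, Cacnb1, Cacng1, Cacng6, Clcn1, Clcn4, Kcnab1, Kcnc4, Kcnh3, Kcnj11, Kcnj12, Kcnma1 and Kcnn1. The 10 highest with ES were Clcn6, Kcna5, Kcne3, Kcne4, Kcnj8, Kcnq5, Kcns3, Scn3a, Scn3b and Scn4b. Of these, Clcn6, Kcne3, Kcns3 and Scn3b reached 60 on the ES array alone, so their highest array was fixed by the way they were chosen. The exercise array was the highest for 11 (35.5%), where it was for 19.8% of all genes. Clcn1 and Kcnn1 are among these 11 and reached 60 on the exercise array alone, so the same limit holds for them. The ischemia array was the highest for 9 (29.0%), where it was for 22.7%. The exercise and sham arrays were both above the ischemia and ES arrays for 6 genes (19.4%), namely Cacnb1, Cacng6, Kcnma1, Ryr3, Scn1a and Scn7a, where 15.3% of all genes had this order. Ryr3 and Scn1a reached 60 on the exercise and sham arrays only, so the way they were chosen fixed this order for them. For Cacnb1 the span was narrow, and its second probe set gave the reverse order. The reverse order held for 5 (16.1%), namely Clcn6, Kcne4, Kcnn3, Kcns3 and Scn3a, where 21.5% of all genes had it. By sign alone, 18 of 31 genes had a ratio below 0 with ES against ischemia, where 43.4% of all genes did, and 19 with ES against exercise, where 45.3% did. With exercise against ischemia 16 were below 0, where 50.6% of all genes were, and with ischemia against sham 19 were above 0, where 51.8% were. These shares count small differences as well as large ones. Over all 31 genes the median log2 ratio was 0.16 for ischemia against sham (0.01 for all genes), -0.07 for ES against ischemia (0.06) and -0.04 for exercise against ischemia (0.00). Between ES and exercise it was -0.13 (0.04). These medians depend on the settings. With a floor at the 70th percentile all 4 were 0.00. The median for ischemia against sham was 0.024 with a signal minimum of 30 and 0.0094 with a minimum of 120. That for ES against ischemia ran from -0.26 with a minimum of 120 to -0.013 with a minimum of 30, and was -0.13 under quantile normalization. That for exercise against ischemia was -0.083 with a minimum of 120 and 0.00 with a minimum of 30, and that for ES against exercise was -0.19 with a minimum of 120.

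**Figure D4:**
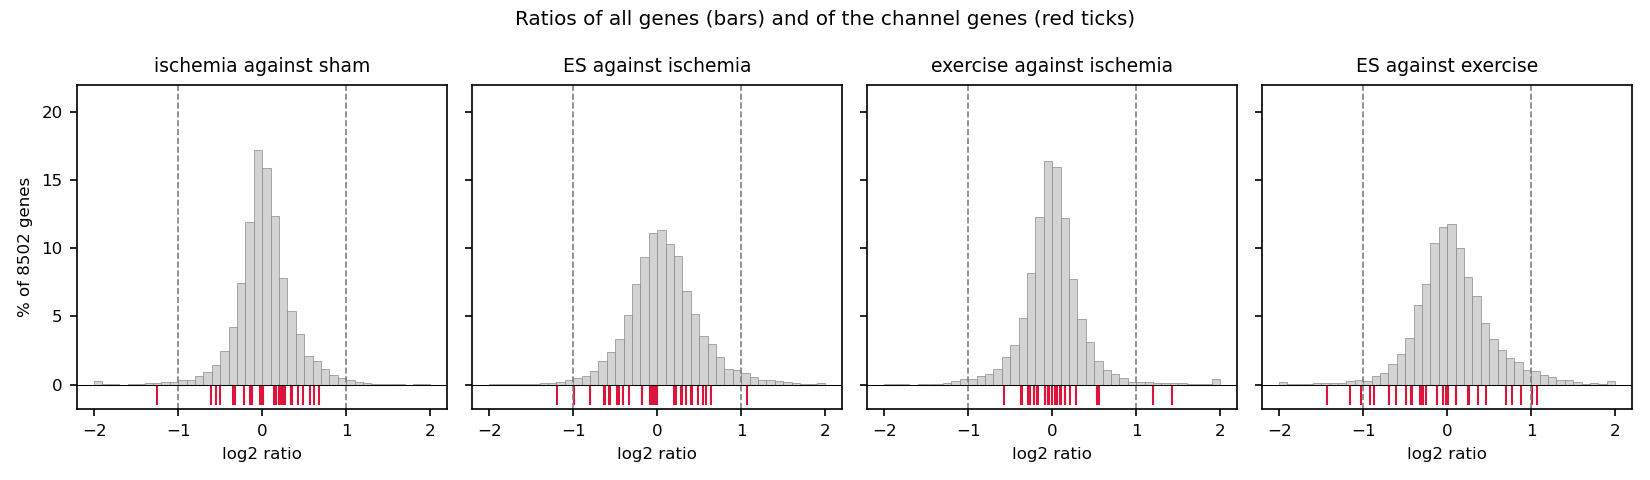
Distribution of log2 ratios (x) over the 8502 genes with a signal of 60 or more, as a percentage of genes per bin of 0.1 (y), with the channel genes as red ticks below. Values beyond 2 in either direction are drawn at the edge and dashed lines mark 2-fold. The ticks lie within the bulk of the bars apart from the 7 genes past 2-fold.

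Markers of fibre type, of other cells and of denervation were set beside these values, and their part in the channel results was not tested. The slow-fibre list (10 of 10 measured) had summed signals of 23214 with ES, 76604 with exercise, 11603 with ischemia and 66334 in sham. Exercise and sham stood above the other 2, the order that 6 channel genes (19.4%) and 15.3% of all genes had. For Ryr3 and Scn1a that order was fixed by the way they were chosen. With ES against ischemia 10 of 10 slow-fibre genes were higher, with a median log2 ratio of 0.94. Of those 6 channel genes, Scn7a stood at 0.42, Ryr3 at 0.34, Cacnb1 at -0.03, Cacng6 at -0.05 and Kcnma1 at -0.62. Scn1a was at the floor on both of these arrays. The fast-fibre list (9 of 11 measured, Myh13 under the minimum) was nearly level, at 97152, 96065, 92200.3 and 96323. The endothelial list (8 of 9 measured) summed to 4359 with ES, 2360.2 with exercise, 2133 with ischemia and 2244 in sham. The smooth muscle list (8 of 9 measured, Cnn1 under the minimum) summed to 4061, 3567, 3304 and 3699. Both sums were highest with ES, as were 39.7% of all genes. A large part of the smooth muscle sum was Abcc9, at 1839, 2031, 1864 and 1802, which was highest with exercise. Within the smooth muscle list 6 of 8 genes were higher with ES than with ischemia and 2 lower, with a median log2 ratio of 0.41. The lowest was Lmod1, a leiomodin, at -1.23. The macrophage list (12 of 12 measured) summed to 5237 with ES and 1975 with exercise, against 4338 with ischemia and 1916 in sham.

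The denervation list left out the channel families followed here, but it holds genes of the acetylcholine receptor, itself a channel. It had 12 of 17 genes measured, with Chrng, Chrne, Musk and Mt1 under the minimum. Of the 12, 7 were past 2-fold higher with ES against ischemia and 0 lower, where 2.72% and 0.941% of all genes were, with a median log2 ratio of 1.45. With exercise against ischemia 1 was past 2-fold higher (Sln) and 0 lower, where 1.35% and 1.04% of all genes were, with a median of -0.22. With ischemia against sham 1 was higher (Myh8, log2 ratio 1.23) and 2 were lower (Chrnd, -1.24, and Sln, -4.38), where 0.941% and 1.02% of all genes were, with a median of 0.13. Sln, which encodes the calcium pump regulator sarcolipin, read 665 with ES, 802 with exercise, 68.2 with ischemia and 1420.0 in sham, so its ES array was above ischemia and below sham. Some genes of that list, such as Myog and Myh3, are also genes of regenerating fibres. Among the channel genes that denervation is known to move, Clcn1 was lower with ES, where its signal was under the floor. Clcn1 reached the signal minimum on the exercise array alone. Kcnn3 did not separate ES from ischemia, and Scn4a was near the floor.

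**Figure D5:**
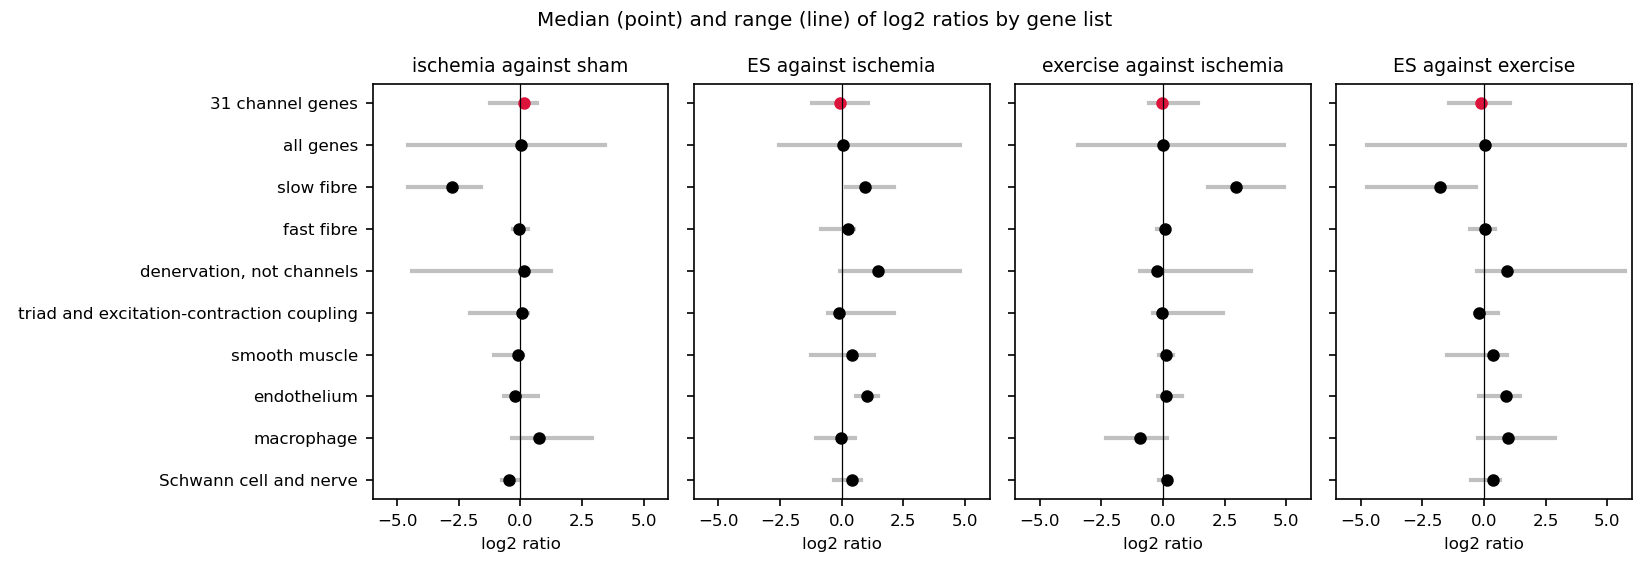
Median (point) and range (line) of log2 ratios (x) of the 31 channel genes in red, of all 8502 genes and of the marker lists (y), in the 4 comparisons. The medians of the channel genes lie between -0.13 and 0.16, while the slow-fibre list lies at -2.77 for ischemia against sham and 2.95 for exercise against ischemia, and the denervation list at 1.45 for ES against ischemia.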

How the data were processed

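Expression was measured on 4 single-colour oligonucleotide arrays of rat skeletal muscle. The values the authors deposited are linear signal intensities, 1 for each probe set on each array, and MAS5 is named without a version in the submitters' processing notes. Biotinylated cRNA was made by 3' in vitro transcription, per the labels' protocols. After leaving out 2% at either end, the mean intensity was 150.0 on every array, so overall amounts of mRNA cannot be compared. Detection calls were not used here.

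The platform annotation gave a single symbol for 20832 of 31099 probe sets, and 436 with several symbols were not used. Groups came from the labels. The floor was the 50th percentile of all values (30.1), the threshold 2-fold, and the signal minimum 60 on at least 1 array. Ratios were computed for all 8502 genes that passed it (Python 3.11.15, numpy 2.4.6, pandas 2.3.3), and no p-value was computed. The members and lists were chosen with earlier results of these data known.

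Named were all members past 2-fold, the genes fixed by role, the 2 nearest the minimum on either side, and members whose probe sets disagree. The text also gives the values of the other members, and of further genes chosen after their values were seen. These were Abcc8, Abcc9, Jph1, Jph2, Jsrp1, Hrc, Casq1, Casq2, Cav3, Sln, Myh8, Chrnd and Lmod1. Genes of the Schwann cell and nerve list were also chosen after their values were seen. Alternatives for normalization were quantile and cyclic loess (limma 3.58.1, R 4.3.3). Others were floors at the 30th and 70th percentiles, 1.5-fold and 3-fold, the mean of probe sets, and minimums of 30 and 120. A further alternative left out probe sets whose names end in _s_at, _x_at or _a_at. The calculations were tested on simulated data.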

Additional observations from a re-analysis of the deposited data

How the results depend on the processing

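With 1 array per group, no array could be left out, and no check against replicates was possible. No paired analysis was possible because each group has 1 array. Counts of channel genes past the threshold are small and move with the threshold. At 1.5-fold, 2 were higher and 2 lower with ischemia against sham, 2 higher and 5 lower with ES against ischemia, 2 higher and 0 lower with exercise against ischemia, and 5 higher and 8 lower with ES against exercise. At 3-fold each of these counts was 0. With a floor at the 70th percentile, 0 were lower with ischemia against sham, 0 higher with ES against ischemia, 0 higher with exercise against ischemia, and 0 higher and 1 lower with ES against exercise. With a floor at the 30th percentile 2 were lower with ES against ischemia, Clcn1 joining Kcnj12, and 1 was lower with exercise against ischemia, Kcne3 at -1.10. Quantile and cyclic loess normalization each left 0 higher with ES against ischemia and 0 higher with ES against exercise, and loess gave 2 lower with ES against ischemia. A signal minimum of 120 left 16 genes, with 0 lower for ischemia against sham, 0 higher for ES against ischemia, 0 higher for exercise against ischemia, and 1 higher and 1 lower for ES against exercise. The median for ischemia against sham was 0.00 with the higher floor, 0.024 with a minimum of 30 (52 genes) and 0.0094 with a minimum of 120. That for ES against ischemia was -0.26 with a minimum of 120, and that for ES against exercise 0.00 with the higher floor. No ratio past 2-fold changed sign under any alternative. Kcnj12 with ES against ischemia and Kcnma1 with ES against exercise stayed past 2-fold under every alternative but the 3-fold threshold. Where a count moved, the cause was not tested beyond the fewer genes or higher floor that the setting itself brings.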
